A study of Saccharomyces cerevisiae with 8 samples.

Results

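The genes described here are 10 regulators of the budding yeast cell cycle. They are the G1 cyclins CLN1, CLN2 and CLN3, the S phase cyclins CLB5 and CLB6, the mitotic cyclins CLB1 and CLB2, and the inhibitors WHI5, FAR1 and SIC1. They were chosen by gene name, with no threshold on a measured value, at a time when earlier results of these data were known. All 10 were found, each with 1 probe set, among the 5449 genes measured. Transcripts were read on Affymetrix Yeast Genome 2.0 arrays, on which a probe set is a group of short probes for 1 transcript. The 3 strains were Δpde2 (3 arrays), Δpde2Δtpk3 (2 arrays) and wild type (3 arrays), all haploid derivatives of BY4741 that carry its auxotrophic mutations in HIS3, LEU2, MET15 and URA3. Δpde2 cells lack the high affinity cAMP phosphodiesterase, with KanMx in place of the gene. Δpde2Δtpk3 cells also lack Tpk3p, a catalytic subunit of protein kinase A (PKA), with HIS3 in place of PDE2 and KanMx in place of TPK3, so an effect of the markers cannot be told apart from that of TPK3 between both mutants. Every culture, wild type included, had 24 h of growth in YPD medium with 4 mM cAMP added, a time the study places at the diauxic shift. No culture without added cAMP was analysed, so an effect of cAMP itself was not measured. The study describes triplicate cultures of the mutants, and for wild type nothing says that the arrays came from separate cultures, so p-values may measure technical spread only.

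Budding yeast commit to a new division at Start, late in G1. Cln3p bound to the kinase Cdc28p acts on the repressor Whi5p, and this frees the transcription factors SBF (Swi4p and Swi6p) and MBF (Mbp1p and Swi6p) to transcribe CLN1, CLN2, CLB5 and CLB6. Cln1p and Cln2p with Cdc28p then mark Sic1p for destruction, which releases the Clb5p and Clb6p kinases that start S phase, and Clb1p and Clb2p drive mitosis later on. Far1p blocks the Cln kinases in cells exposed to mating pheromone. The Ras/cAMP/PKA pathway signals nutrient supply to growth and to passage through Start. In a bulk sample, fewer cells in a phase of the cycle and less transcript per cell cannot be told apart.

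The arrays were brought to the same distribution by quantile normalization, and levels below are log2 signals on that scale, which can be compared between strains for 1 gene but not between genes. Among the wild type arrays replicate 1 was unlike its partners. Across genes, which are not independent replicates, it correlated at 0.868 and 0.878 with the others, which correlated at 0.992 with each other. On that array WHI5 lay 1.44 and CLB6 2.12 log2 units above the mean of the other wild type arrays, CLN3 1.01 above it and CLB2 0.63 below it (-0.63). Values without that array are given beside many of the results, and those given without such a value may depend on it too. The deleted genes matched the labels. PDE2 was at 3.64% of wild type in Δpde2 and at 3.57% in Δpde2Δtpk3 cells, and TPK3 was at 97.8% and 6.15% in the same strains. Mating-type genes were read as a check of the cells. The summed signal of 7 of 7 a-specific genes ran from 28298 to 32901 in Δpde2, from 26539 to 30716 in Δpde2Δtpk3 and from 21786 to 28052 in wild type cells. That of the measured alpha-specific genes, 2 of 4, ran from 603 to 654, from 442 to 565 and from 685 to 1707 in the same order. That of 5 of 5 genes of entry into meiosis ran from 1179 to 1425, from 1207 to 1407 and from 1535 to 2480. The highest wild type value of each of these sums was that of wild type replicate 1. MFA1 and BAR1 among the a-specific genes were higher and NDT80 among the meiotic genes was lower in Δpde2 cells against wild type. MFA1 was also higher in Δpde2Δtpk3 cells, and the part of these differences in the results below was not tested.

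**Figure D1:**
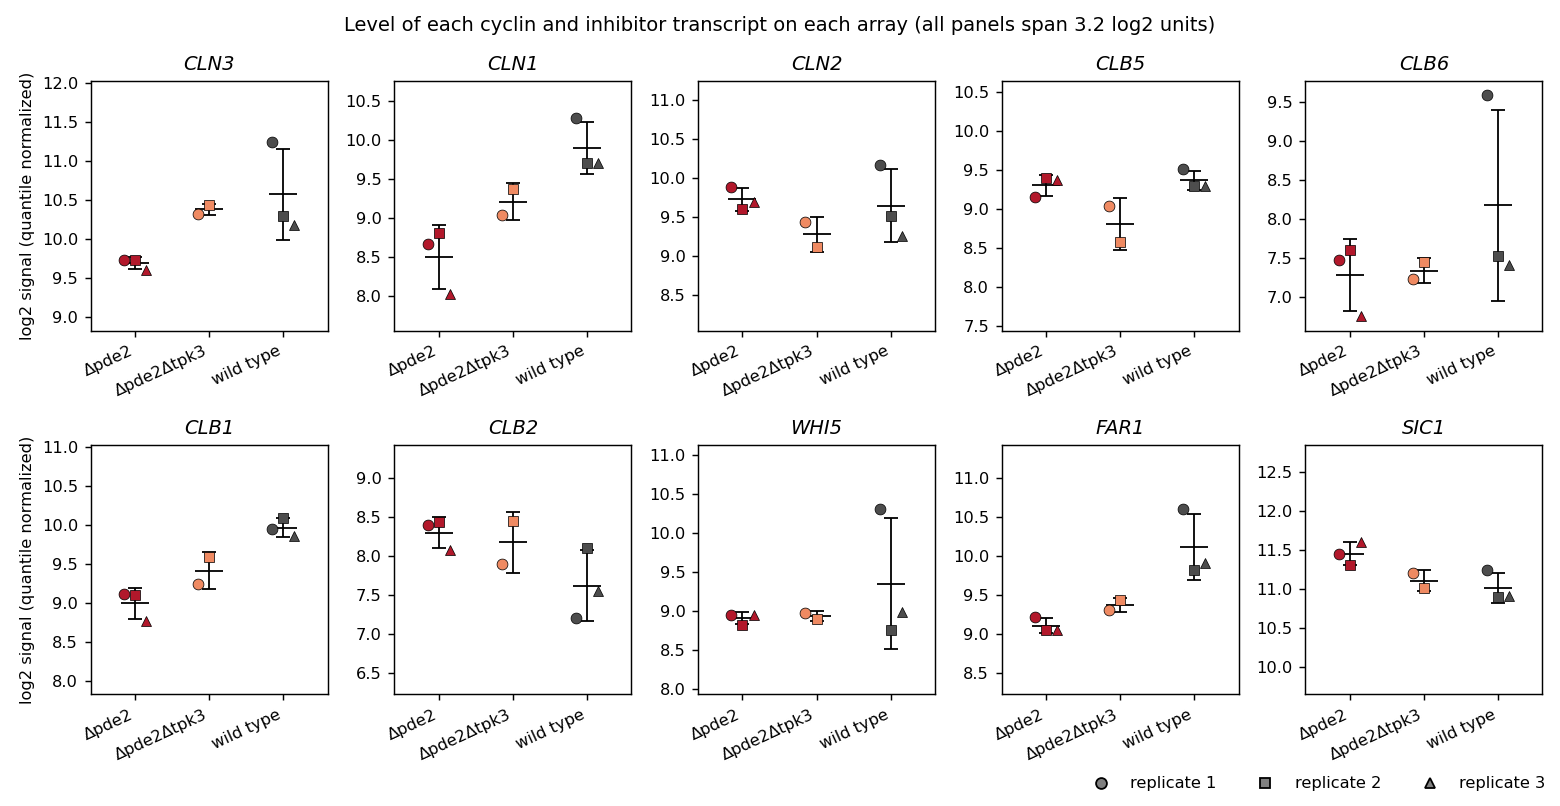
Quantile normalized log2 signal (y axis) of each of the 10 genes on each array of Δpde2, Δpde2Δtpk3 and wild type cells (x axis). Symbols show the replicate number, and bars the mean ± SD of each strain. CLN1, CLN3, CLB1 and FAR1 lie lowest in Δpde2 cells, and wild type replicate 1 (grey circle) stands far above the other wild type arrays for CLB6 and WHI5.

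Of the 10 genes, 4 were lower in Δpde2 than in wild type, namely CLN1, CLN3, CLB1 and FAR1, and 1 was higher, SIC1 (limma, adjusted p under 0.05). Over all 5449 genes, 41.4% were called in this comparison, 21.9% as lower and 19.5% as higher, so 5 of 10 is close to the share over all genes. The median log2 fold change of the 10 genes was -0.66 with all arrays, against 0.03 over all genes, but -0.09 against 0.02 without wild type replicate 1. The same 5 genes were called without that array, when 60.8% of all genes were (29.4% lower and 31.4% higher). Of the called genes, CLN1 and FAR1 changed by at least 2 fold, as did 16.0% of all genes. Between Δpde2Δtpk3 and wild type cells none of the 10 genes passed limma's test, against 2.72% of all genes (1.69% lower and 1.03% higher), and 4 had an unadjusted p under 0.05, as did 20.1% of all genes. Between Δpde2 and Δpde2Δtpk3 cells none passed either, against 13.0% of all genes (7.41% lower and 5.56% higher), and 3 had an unadjusted p under 0.05, as did 29.2% of all genes. The last comparison depended on wild type replicate 1, which enters it through the shared estimate of spread and the joint quantile normalization. The fit without that array, given next, kept this normalization. Without that array 5 of the 10 genes were called between both mutants, when 44.6% of all genes were (20.8% lower and 23.8% higher). CLN1 and CLN3 were the lower ones, and CLN2, CLB5 and SIC1 the higher. In Δpde2Δtpk3 against wild type cells 1 was then called, FAR1, against 17.9% of all genes (9.08% lower and 8.77% higher). Both comparisons with wild type share its arrays. Arrays of the compared strains did not overlap for 5 genes between Δpde2 and wild type (62.0% of all genes), for 4 between Δpde2Δtpk3 and wild type (36.9%) and for 7 between both mutants (64.6%).

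**Figure D2:**
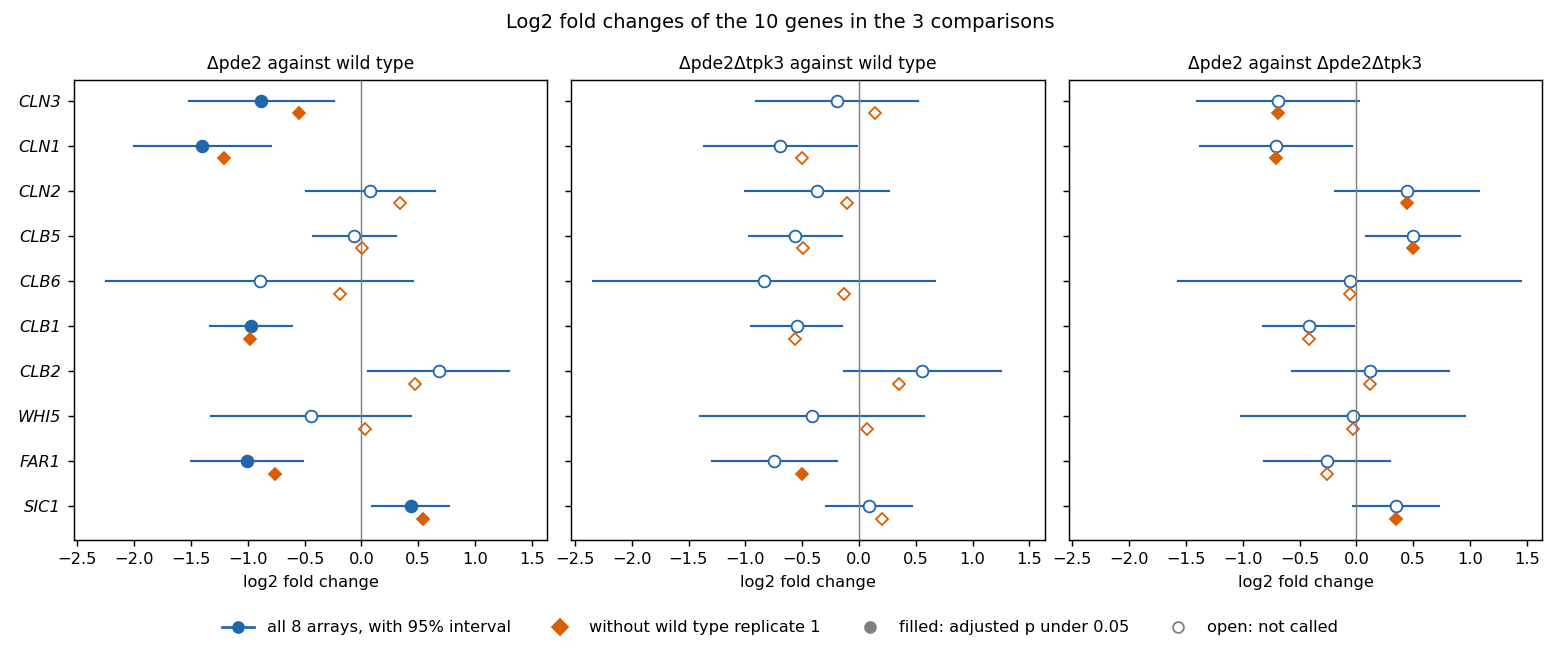
Log2 fold change (x axis) of each gene (y axis) in the 3 comparisons, positive where the strain named first is higher. Blue circles with 95% confidence intervals come from the fit of all 8 arrays and orange diamonds from the fit without wild type replicate 1, and filled symbols mark an adjusted p under 0.05. CLN1, CLN3, CLB1, FAR1 and SIC1 are filled between Δpde2 and wild type in both fits, and 5 genes between both mutants are filled only without that array.

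CLN3 (YAL040C) encodes the G1 cyclin that acts first at Start. Its log2 signal was 9.74, 9.73 and 9.61 in Δpde2, 10.32 and 10.43 in Δpde2Δtpk3 and 11.25, 10.29 and 10.18 in wild type cells. All 3 Δpde2 arrays lay below every other array. The Δpde2Δtpk3 arrays fell among those of wild type only through wild type replicate 1, and lay above the others (10.29 and 10.18). The mean was 9.69 ± 0.07 (SD, n = 3) in Δpde2 and 10.57 ± 0.58 (n = 3) in wild type cells, and the log2 fold change was -0.88 (limma, SE 0.27, adjusted p = 0.0363), or 1.84 fold lower. Without wild type replicate 1 the log2 fold change was -0.55 (SE 0.09, adjusted p = 0.00169). CLN3 in Δpde2Δtpk3 cells had a mean of 10.38 ± 0.08 (n = 2) and a log2 fold change of -0.19 against wild type (95% interval -0.91 to 0.52, adjusted p = 0.722), which turned to 0.14 without wild type replicate 1. The log2 fold change between both mutants was -0.69 (SE 0.30, adjusted p = 0.183). It had the same size and passed without wild type replicate 1 (SE 0.09, adjusted p = 0.00157). The call against wild type was lost without any single Δpde2 or Δpde2Δtpk3 array (adjusted p 0.0588 to 0.110) and with the values as deposited (0.0540).

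CLN1 (YMR199W) encodes a G1 cyclin made at Start. It had the largest change of the 10 genes against wild type in Δpde2 cells. Its log2 signal was 8.67, 8.81 and 8.03 in Δpde2, 9.05 and 9.38 in Δpde2Δtpk3 and 10.29, 9.71 and 9.71 in wild type cells. The 3 strains did not overlap, with Δpde2 lowest and wild type highest. The mean was 8.51 ± 0.41 (SD, n = 3) in Δpde2 and 9.91 ± 0.33 (n = 3) in wild type cells, and the log2 fold change was -1.40 (limma, SE 0.26, adjusted p = 0.00509), or 37.9% of the wild type level. It passed in every setting in which it was tested, with log2 fold changes of -1.55 to -1.15. In Δpde2Δtpk3 cells the mean was 9.21 ± 0.23 (n = 2), and the log2 fold change against wild type was -0.69 (95% interval -1.37 to -0.02, adjusted p = 0.237). For Δpde2 against Δpde2Δtpk3 cells it was -0.71 (95% interval -1.38 to -0.04, adjusted p = 0.152), and this passed without wild type replicate 1 (adjusted p = 0.0367). With all arrays, Δpde2Δtpk3 thus differed from neither neighbour in the order of the levels after adjustment.

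CLN2 (YPL256C) encodes the G1 cyclin closest to Cln1p. CLN2 had a log2 signal of 9.88, 9.60 and 9.69 in Δpde2, 9.43 and 9.12 in Δpde2Δtpk3 and 10.16, 9.51 and 9.25 in wild type cells. The wild type arrays spanned those of Δpde2 only through wild type replicate 1, and the others (9.51 and 9.25) lay below every Δpde2 array. Of the Δpde2Δtpk3 arrays, replicate 2 (9.12) lay below every wild type array. The Δpde2 arrays lay above the Δpde2Δtpk3 arrays. The log2 fold change between Δpde2 and wild type cells was 0.08 (95% interval -0.49 to 0.65, adjusted p = 0.808, limma) and changed sign with wild type replicate 3 or Δpde2 replicate 1 left out. Without wild type replicate 1 it was 0.34 (adjusted p = 0.0721). With array weights, which count unlike arrays less, it was 0.43 and passed (adjusted p = 0.00726). It was -0.37 between Δpde2Δtpk3 and wild type cells (SE 0.27, adjusted p = 0.461), or -0.11 without wild type replicate 1. For both mutants against each other it was 0.45 (Δpde2 higher) (SE 0.27, adjusted p = 0.320), and it passed without wild type replicate 1 (adjusted p = 0.0370).

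WHI5 (YOR083W) encodes the repressor of SBF that holds cells before Start. WHI5 had a log2 signal of 8.96, 8.82 and 8.95 in Δpde2, 8.98 and 8.90 in Δpde2Δtpk3 and 10.31, 8.76 and 8.99 in wild type cells. All arrays but wild type replicate 1 lay within a narrow band. WHI5 had a log2 fold change of -0.44 in Δpde2 (95% interval -1.33 to 0.44, adjusted p = 0.363, limma) and of -0.41 in Δpde2Δtpk3 cells (95% interval -1.40 to 0.57, adjusted p = 0.587) against wild type. Both changed sign without wild type replicate 1, to 0.04 and 0.07. Between Δpde2 and Δpde2Δtpk3 cells the log2 fold change was -0.03 (95% interval -1.02 to 0.95, adjusted p = 0.972).

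FAR1 (YJL157C) encodes the inhibitor of Cln kinases that arrests cells in G1 during mating. Its log2 signal was 9.21, 9.05 and 9.05 in Δpde2, 9.30 and 9.43 in Δpde2Δtpk3 and 10.60, 9.83 and 9.92 in wild type cells. Both mutants lay below every wild type array, and the Δpde2 arrays lay below those of Δpde2Δtpk3. The mean was 9.11 ± 0.09 (SD, n = 3) in Δpde2 and 10.11 ± 0.42 (n = 3) in wild type cells, and the log2 fold change was -1.01 (limma, SE 0.21, adjusted p = 0.00864), or 2.01 fold lower. FAR1 passed in every setting in which it was tested, and without wild type replicate 1 its log2 fold change was -0.76 (SE 0.10, adjusted p = 0.000418). In Δpde2Δtpk3 cells the mean was 9.37 ± 0.09 (n = 2), with a log2 fold change of -0.75 against wild type (SE 0.23) that did not pass (adjusted p = 0.136). Without wild type replicate 1 it was -0.50 (SE 0.10) and passed (adjusted p = 0.0194), the only one of the 10 genes to do so in that comparison. Δpde2 against Δpde2Δtpk3 cells gave a log2 fold change of -0.26 (95% interval -0.81 to 0.29, adjusted p = 0.520).

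SIC1 (YLR079W) encodes the inhibitor that keeps the Clb kinases off until S phase. It was the only one of the 10 genes called higher. Its log2 signal was 11.44, 11.30 and 11.60 in Δpde2, 11.20 and 11.01 in Δpde2Δtpk3 and 11.24, 10.90 and 10.91 in wild type cells. Each Δpde2 array lay above each other array, although the lowest was only 0.07 above the highest of wild type, replicate 1. The Δpde2Δtpk3 arrays fell among those of wild type only through that replicate, and lay above the others (10.90 and 10.91). The mean was 11.45 ± 0.15 (SD, n = 3) in Δpde2 and 11.01 ± 0.19 (n = 3) in wild type cells, and the log2 fold change was 0.43 (limma, SE 0.14, adjusted p = 0.0467), or 1.35 fold. The call was lost without any single array other than wild type replicate 1 (adjusted p 0.0608 to 0.161), with median centring (0.101) and with the values as deposited (0.0531), while without wild type replicate 1 it held (log2 fold change 0.55, adjusted p = 0.00447). In Δpde2Δtpk3 cells SIC1 had a log2 fold change of 0.09 against wild type (95% interval -0.29 to 0.47, adjusted p = 0.761), or 0.20 without wild type replicate 1 (adjusted p = 0.293). Between Δpde2 and Δpde2Δtpk3 cells it was 0.34 (SE 0.16, adjusted p = 0.204), and it passed without wild type replicate 1 (adjusted p = 0.0420).

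CLB5 (YPR120C) and CLB6 (YGR109C) encode the cyclins that start DNA replication. The log2 signal of CLB5 was 9.16, 9.40 and 9.38 in Δpde2, 9.05 and 8.58 in Δpde2Δtpk3 and 9.51, 9.30 and 9.30 in wild type cells. The Δpde2Δtpk3 arrays were lowest, and those of Δpde2 and wild type overlapped. CLB5 had a log2 fold change of -0.06 between Δpde2 and wild type cells (95% interval -0.43 to 0.31, adjusted p = 0.768, limma), which turned to 0.01 without wild type replicate 1. In Δpde2Δtpk3 cells its log2 fold change against wild type was -0.56 (SE 0.17, adjusted p = 0.136), and between Δpde2 and Δpde2Δtpk3 cells it was 0.50 (SE 0.17, adjusted p = 0.107). The last of these passed without wild type replicate 1 (adjusted p = 0.0301). The log2 signal of CLB6 was 7.48, 7.61 and 6.76 in Δpde2, 7.23 and 7.46 in Δpde2Δtpk3 and 9.59, 7.53 and 7.42 in wild type cells. Apart from wild type replicate 1 the strains overlapped. CLB6 had a log2 fold change of -0.90 in Δpde2 (95% interval -2.24 to 0.45, adjusted p = 0.240) and of -0.83 in Δpde2Δtpk3 cells (95% interval -2.34 to 0.67, adjusted p = 0.481) against wild type. Without wild type replicate 1 these were -0.19 and -0.13.

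CLB1 (YGR108W) and CLB2 (YPR119W) encode the cyclins of mitosis. The log2 signal of CLB1 was 9.11, 9.11 and 8.77 in Δpde2, 9.25 and 9.58 in Δpde2Δtpk3 and 9.94, 10.09 and 9.85 in wild type cells. The strains did not overlap, with Δpde2 lowest and wild type highest, and wild type replicate 1 lay between the other wild type arrays. The mean was 8.99 ± 0.20 (SD, n = 3) in Δpde2 and 9.96 ± 0.12 (n = 3) in wild type cells, and the log2 fold change was -0.97 (limma, SE 0.15, adjusted p = 0.00283), or 51.1% of the wild type level. CLB1 kept an adjusted p under 0.05 in every setting in which it was tested, with log2 fold changes of -1.03 to -0.86, but not a fold of at least 2 (1.96 fold lower). In Δpde2Δtpk3 cells the mean was 9.42 ± 0.24 (n = 2), with a log2 fold change of -0.55 against wild type (SE 0.17, adjusted p = 0.136), and between both mutants the log2 fold change was -0.42 (SE 0.17, adjusted p = 0.154). The log2 signal of CLB2 was 8.40, 8.44 and 8.08 in Δpde2, 7.90 and 8.46 in Δpde2Δtpk3 and 7.21, 8.11 and 7.55 in wild type cells. The mutants tended higher with overlap. Its log2 fold change against wild type was 0.68 in Δpde2 (95% interval 0.06 to 1.30, adjusted p = 0.0747) and 0.56 in Δpde2Δtpk3 cells (95% interval -0.13 to 1.25, adjusted p = 0.330), and neither passed with all arrays. The values were 0.47 and 0.35 without wild type replicate 1. The value in Δpde2 cells passed with array weights, with the replicate block and without wild type replicate 2. Between Δpde2 and Δpde2Δtpk3 cells it was 0.12 (95% interval -0.57 to 0.81, adjusted p = 0.835).

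Several of the 10 genes form pairs with related proteins. The difference between the log2 signals of a pair on the same array was compared between strains, a test chosen after the values were seen, since its change between strains does not depend on how the arrays are centred. CLN1 minus CLN2 was -1.21, -0.78 and -1.65 in Δpde2, -0.39 and 0.26 in Δpde2Δtpk3 and 0.12, 0.20 and 0.46 in wild type cells. The Δpde2 arrays lay below all others, and the other strains overlapped. CLB1 minus CLB2 was 0.71, 0.67 and 0.69 in Δpde2, 1.34 and 1.12 in Δpde2Δtpk3 and 2.74, 1.98 and 2.30 in wild type cells, without overlap between any of the strains. The change from wild type was -1.48 for CLN1 minus CLN2 and -1.65 for CLB1 minus CLB2 in Δpde2 cells (two-sided exact permutation test, p = 0.1 each, n = 3 and 3), and 0.1 is the smallest p this design allows. CLB5 minus CLB6 was 1.67, 1.79 and 2.62 in Δpde2, 1.82 and 1.12 in Δpde2Δtpk3 and -0.08, 1.77 and 1.89 in wild type cells, and the strains overlapped (exact permutation p = 0.5 between Δpde2 and wild type). After adjustment over the 9 tests of this kind no p was below 0.180. CLB1 and CLB6 lie next to each other on chromosome VII, as do CLB2 and CLB5 on chromosome XVI, with 0 annotated genes between them.

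**Figure D3:**
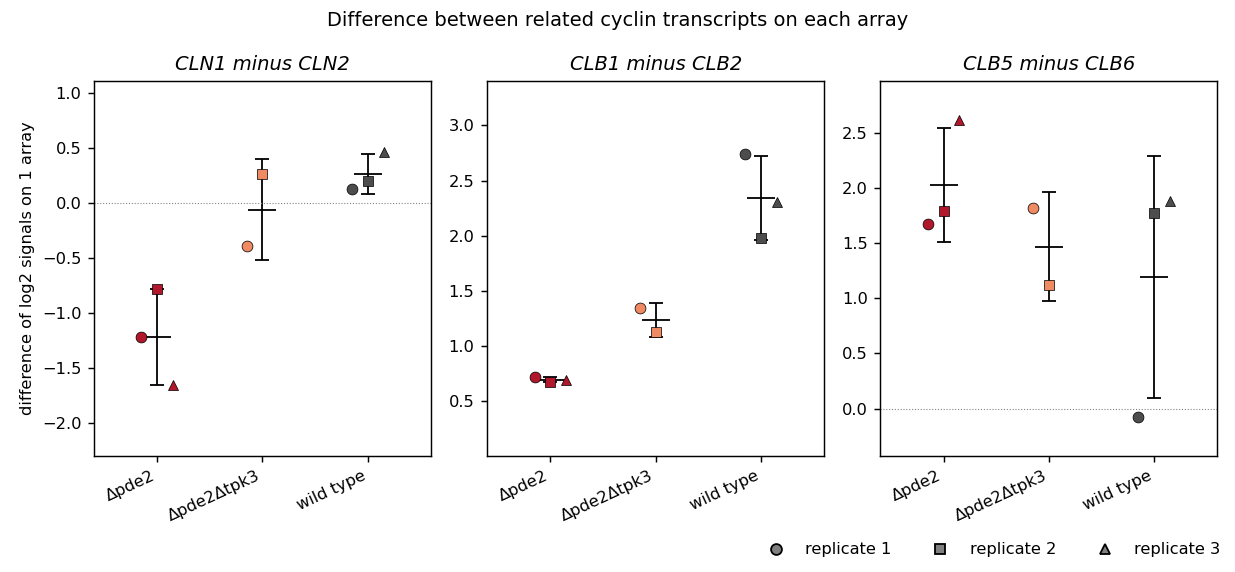
Difference between the log2 signals of related cyclin genes on the same array (y axis) in Δpde2, Δpde2Δtpk3 and wild type cells (x axis), with the mean ± SD of each strain. For CLN1 minus CLN2 the Δpde2 arrays lie between -1.65 and -0.78 and the wild type arrays between 0.12 and 0.46, while for CLB5 minus CLB6 the strains overlap.

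The regulators of Start beyond the 10 genes were read from a list of 16. In Δpde2 against wild type cells 4 were lower (21.9% of all genes) and 2 higher (19.5%). XBP1, a stress-induced repressor with CLN1 among its known targets, had the largest change. XBP1 had a log2 signal of 8.14, 8.12 and 8.20 in Δpde2, 9.71 and 9.65 in Δpde2Δtpk3 and 11.75, 11.04 and 11.13 in wild type cells. The strains did not overlap, in the same order as for CLN1. XBP1 passed in each comparison, with a log2 fold change of -3.15 (limma, SE 0.19, adjusted p = 0.000151) in Δpde2 and of -1.63 (SE 0.21, adjusted p = 0.0175) in Δpde2Δtpk3 cells against wild type, and of -1.52 (SE 0.21, adjusted p = 0.0104) between both mutants. STB1, which binds Swi6p (-1.29, adjusted p = 0.0213), and MSA2, a factor linked to G1 transcription (-1.12, adjusted p = 0.00454), were lower in Δpde2 than in wild type. Without wild type replicate 1 both still passed, with smaller log2 fold changes of -0.86 for STB1 and -0.89 for MSA2. SRL3, also called WHI7, a relative of WHI5, was higher (1.41, SE 0.28, adjusted p = 0.00676). Of the SBF and MBF subunits SWI6 was higher in Δpde2 cells (0.61, adjusted p = 0.0427). SWI4 had a log2 fold change of -0.42 (adjusted p = 0.0821), and MBP1 of 1.50 (adjusted p = 0.206), with 5.38 on wild type replicate 1 against 9.01 and 8.72 on the others. Without that array the MBP1 value was 0.34 (adjusted p = 0.0642), SWI4 passed (-0.60, adjusted p = 0.000895), and 6 of the 16 genes were lower and 4 higher.

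Among 19 other targets of SBF and MBF, 5 were lower in Δpde2 than in wild type and 1 was higher, with a median log2 fold change of -0.51 (-0.30 without wild type replicate 1). CDC21, the thymidylate synthase, had a log2 signal of 8.85, 8.96 and 8.72 in Δpde2, 9.55 and 9.33 in Δpde2Δtpk3 and 10.17, 10.21 and 10.004 in wild type cells. POL1, the catalytic subunit of DNA polymerase alpha, was at 8.99, 9.02 and 8.94 in Δpde2, 9.53 and 9.36 in Δpde2Δtpk3 and 10.15, 10.32 and 10.11 in wild type cells. For both genes the strains stood apart without overlap, Δpde2 lowest and wild type highest. The log2 fold change in Δpde2 cells against wild type was -1.29 for CDC21 (SE 0.12, adjusted p = 0.000525, limma) and -1.21 for POL1 (SE 0.11, adjusted p = 0.000417). OCH1, a mannosyltransferase of the Golgi (-1.53, adjusted p = 0.000325), and TOS4 (-1.09, adjusted p = 0.00168) were lower as well. Between Δpde2 and Δpde2Δtpk3 cells 3 of the 19 were lower (7.41% of all genes), namely OCH1 (-1.17), CDC21 (-0.59) and POL1 (-0.46), and none was higher. With wild type replicate 1 left out, 7 were lower and 1 higher (20.8% and 23.8% of all genes). Between Δpde2Δtpk3 and wild type cells POL1 passed (-0.75, adjusted p = 0.0286), where 1.69% of all genes were lower, and 3 of the 19 were lower without wild type replicate 1, when 9.08% of all genes were.

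CDC28, the kinase that all Cln and Clb cyclins bind, had a log2 fold change of 0.21 in Δpde2 against wild type cells (SE 0.12, adjusted p = 0.202, limma). Of 13 genes for the kinase and its regulators 3 were lower in Δpde2 than in wild type and none was higher. They were CDH1, an activator of the anaphase-promoting complex in G1 (-0.99, SE 0.10, adjusted p = 0.000621), AMA1, its meiotic counterpart (-1.75, adjusted p = 0.00353), and PHO85, a kinase with cyclins of its own (-0.80, adjusted p = 0.00264). CDH1 (-0.78) and PHO85 (-0.54) were also lower in Δpde2 than in Δpde2Δtpk3 cells. Without wild type replicate 1, 4 genes of this list were higher and 3 lower against wild type, when 31.4% of all genes were higher and 29.4% lower. Of 7 genes of the SCF ubiquitin ligase, which marks Sic1p and the Cln cyclins, 2 were lower in Δpde2 than in wild type, CDC4 (-0.60) and GRR1 (-0.52), which encode the F-box proteins for Sic1p and for the Cln cyclins. The other F-box gene MET30 (0.62) and the RING subunit gene HRT1 (0.54) were higher, and HRT1 was higher than in Δpde2Δtpk3 cells too (0.45).

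Of 12 other cyclins, 3 were lower and 2 higher in Δpde2 than in wild type. CLB3 and CLB4 encode B-type cyclins that assist in S phase and spindle formation. CLB3 was at 9.40, 9.48 and 9.37 in Δpde2, 9.86 and 9.90 in Δpde2Δtpk3 and 10.07, 10.07 and 10.09 in wild type cells. CLB4 was at 9.65, 9.72 and 9.80 in Δpde2, 9.11 and 8.94 in Δpde2Δtpk3 and between 8.95 and 9.01 in wild type cells. The Δpde2 arrays stood apart from all others, low for CLB3 and high for CLB4. Against wild type the log2 fold change in Δpde2 cells was -0.66 for CLB3 (SE 0.09, adjusted p = 0.00181, limma) and 0.74 for CLB4 (SE 0.10, adjusted p = 0.00177), and between both mutants it was -0.46 (adjusted p = 0.0328) and 0.70 (adjusted p = 0.0159). Both also passed without wild type replicate 1. PCL8 (-0.99, adjusted p = 0.000561) and PCL10 (-0.63, adjusted p = 0.0102), cyclins of Pho85p that act on glycogen synthase, were lower in Δpde2 than in wild type. In Δpde2Δtpk3 against wild type cells none of the 12 passed limma's test with all arrays, and 2 had an unadjusted p under 0.05 (20.1% of all genes). With wild type replicate 1 left out, PCL5 was higher there (0.81, adjusted p = 0.0197) and PCL10 lower (-0.42, adjusted p = 0.0209). In Δpde2 cells the counts without that array were 6 lower and 3 higher.

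Of 17 measured genes of the mitotic cluster to which CLB1 and CLB2 belong, 4 were lower and 3 higher in Δpde2 than in wild type. The most changed were NUM1, needed for nuclear migration (-1.59, adjusted p = 0.000985, limma), CHS2, the chitin synthase of the septum (-1.41, adjusted p = 0.0137), BUD8, a bud site marker (-1.16, adjusted p = 0.00270), and the kinase gene ALK1 (0.99, adjusted p = 0.0261). ALK1 had a log2 fold change of 0.65 without wild type replicate 1 (adjusted p = 0.00114), and 5 of the 17 genes were then lower and 4 higher. Between Δpde2 and Δpde2Δtpk3 cells NUM1 was lower (-1.19) and TEM1, a GTPase of mitotic exit, was higher (1.02). Of 13 targets of Ace2p and Swi5p, which also transcribe SIC1, 2 were lower and 1 higher in Δpde2 cells against wild type, or 3 lower and 4 higher without wild type replicate 1. ASH1, a repressor of HO in daughter cells, was lower in Δpde2 (-1.60, SE 0.10, adjusted p = 0.000151) and in Δpde2Δtpk3 cells (-0.80, SE 0.11, adjusted p = 0.0194) than in wild type, and PIR1, a cell wall protein gene, was lower (-1.53, adjusted p = 0.00482) while NIS1, a bud neck protein gene, was higher (1.01, adjusted p = 0.0147) in Δpde2 cells. Without wild type replicate 1 the log2 fold change in Δpde2 cells was -1.21 for PIR1 and 1.27 for NIS1. SIC1 rose in Δpde2 cells, while ASH1 and PIR1 fell. Of 9 measured histone genes, most with transcripts that peak in S phase, 2 were lower, HHO1 (-0.78) and the histone variant gene HTZ1 (-0.64), and 2 higher, HHT1 (0.91) and HHT2 (0.51). HHT1 and HHT2 encode the same protein, and their probe sets may read both transcripts.

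Far1p works in the pheromone response, and of 21 genes of this pathway, Δpde2 cells had 5 above and 3 below wild type. STE12, the transcription factor of the pathway, was at 10.42, 10.26 and 10.12 in Δpde2, 9.56 and 9.29 in Δpde2Δtpk3 and 9.28, 9.19 and 8.89 in wild type cells. The Δpde2 arrays stood above all others. STE12 had a log2 fold change of 1.15 against wild type (SE 0.15, adjusted p = 0.00149, limma) and of 0.85 against Δpde2Δtpk3 cells (SE 0.17, adjusted p = 0.0239). SST2, which damps the signal (1.28, adjusted p = 0.00156), and FUS1, a cell fusion gene (1.31, adjusted p = 0.00970), were higher than in wild type, and SST2 was higher than in Δpde2Δtpk3 cells as well (0.96, adjusted p = 0.0238). FAR1, itself a gene that pheromone induces, was lower, as was MSG5, the phosphatase of the pathway's kinases (-1.09, adjusted p = 0.00320). Without wild type replicate 1, 8 of the 21 were higher and 3 lower. In Δpde2Δtpk3 against wild type cells none of the 21 was called by limma with all arrays, and 2 had an unadjusted p under 0.05 (20.1% of all genes). With that array left out, 2 were called higher, STE2 (0.41, adjusted p = 0.0367) and AGA1 (0.88, adjusted p = 0.0220), when 8.77% of all genes were.

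**Figure D4:**
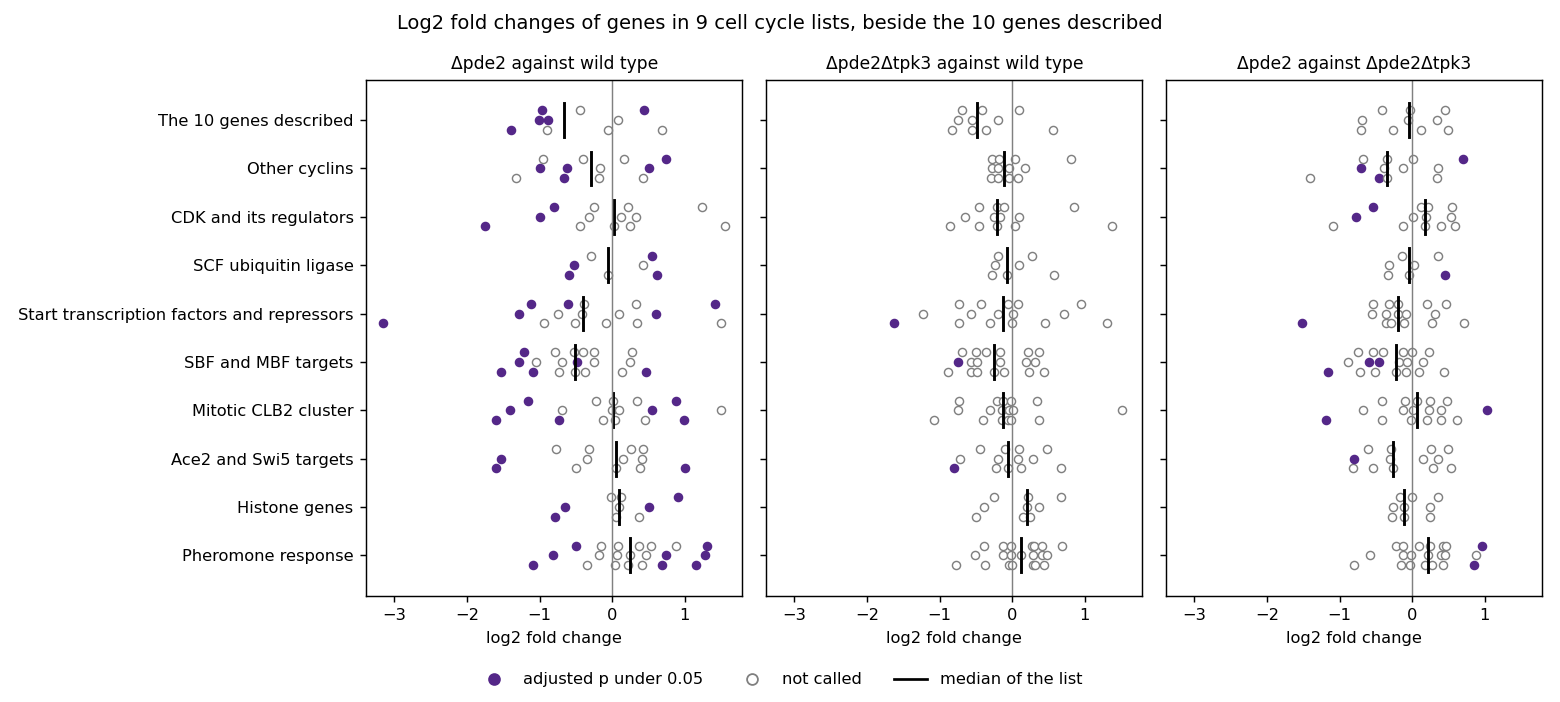
Log2 fold changes (x axis) of the genes of 9 cell cycle lists and of the 10 genes described (y axis) in the 3 comparisons, positive where the strain named first is higher. Each point is a gene, filled where its adjusted p was under 0.05, and black lines are list medians. XBP1 is the filled point at -3.15 between Δpde2 and wild type.

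Median log2 fold changes of the lists in Δpde2 cells against wild type were -0.40 for the regulators of Start, 0.02 for the kinase and its regulators, -0.06 for SCF, -0.29 for the other cyclins, 0.01 for the mitotic cluster, 0.04 for targets of Ace2p and Swi5p, 0.09 for histones and 0.25 for the pheromone response, against 0.03 over all genes. Called genes lay in both directions in each of these lists but that of the kinase and its regulators.

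For the 5 called genes, the genes whose levels followed them most closely over the 8 arrays were found by Pearson correlation. They were MEC3 (0.976) and MMS22 (0.974) for CLN1, SCS3 (0.996) and PCH2 (0.985) for CLN3, SYG1 and MRS6 (0.984 each) for CLB1, SLI15 (0.971) and SYN8 (0.970) for SIC1, and PEX4 (0.994) and BCK1 (0.991) for FAR1. These values are a description over 8 arrays that share 3 strains and wild type replicate 1, so they carry no p-value.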

How the data were processed

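The authors deposited 1 log2 signal per probe set and array (5814 probe sets, 8 arrays). Their methods name dChip for quality control and limma for statistics, and the summary and normalization behind the values are not given in the sources used here. First quartiles of the deposited log2 columns differed by up to 0.386, above a limit of 0.1, and quantile normalization was therefore applied (limma 3.58.1, R 4.3.3). The annotation used names 1 gene for 5498 probe sets, several for none and none for 316, which were left out. Where a gene had more than 1 probe set (47 genes), that of the highest mean signal stood for it, giving 5449 genes, with 12 symbols updated. No genome build is named, so no coordinates are given.

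All 3 strains entered 1 limma fit with 5 residual degrees of freedom. Benjamini-Hochberg adjustment ran over all 5449 genes, with calls made below an adjusted p of 0.05. The number of arrays limits the precision. In simulated data 200 of the 5449 genes were changed, in 10 sets per comparison. Log2 fold changes of 1 were recovered for 62.3% and of 2 for 87.8% of genes between Δpde2 and wild type. The shares were 56.1% and 85.8% between Δpde2Δtpk3 and wild type and 52.9% and 86.2% between both mutants. On average 5.75%, 6.01% and 6.12% of the simulated calls were false, in the same order. Recovery depends on the share of changed genes, and 41.4% were called between Δpde2 and wild type. These rates therefore do not measure the power of the comparisons made here. A further test compared paired genes by exact permutation.

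The members and the 9 context lists and 3 marker lists, taken from general knowledge of yeast, were chosen with earlier results of these data known. Named are all 10 genes, up to 4 called genes of each list with the largest changes in a comparison, and the genes most like a called member. Others (SWI4, SWI6, MBP1, CDC28, NDT80, BAR1, MFA1, PCL5, STE2, AGA1 and FUS2) were named after their values were seen. Alternatives changed the scaling (median centring, the values as deposited), the genes tested (without the lowest 33.3 percent of signal, averaged probe sets), the fit (only the arrays compared, array weights, robust moderation with a trend, the replicate number as a block), the arrays (each left out, and wild type replicate 1 left out before normalization) and the threshold (a fold of at least 2).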

Additional observations from a re-analysis of the deposited data

How the results depend on the processing

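Of the 10 genes, 5 were called between Δpde2 and wild type (41.4% of all genes). With a Δpde2 or wild type array left out 3 to 5 were (25.5% to 60.8%). The count was 3 with the values as deposited (38.9%) or only the arrays compared (38.2%). It was 2 with a fold of at least 2 (16.0%) or without the genes of lowest signal (49.4% of those tested). The last setting left out 8 of the 10 genes, CLN1, CLB1 and FAR1 among them. The count was 7 with array weights (CLN2 and CLB2 gained, 71.6% of all genes called). It was 6 with wild type replicate 1 left out and only the arrays compared (CLN2 gained, 68.3%), a setting added after the data were seen. Between Δpde2Δtpk3 and wild type the count of 0 became 0 to 1 with a Δpde2 or wild type array left out (0.459% to 17.9% of all genes). It was 1 with array weights (13.6%) or with wild type replicate 1 left out before normalization (18.0%). Between both mutants the count of 0 became 0 to 5 with a Δpde2 or wild type array left out (0.973% to 44.6% of all genes). It was 1 with the values as deposited (11.5%) or array weights (32.5%). It was 3 with only the arrays compared (42.4%), also with wild type replicate 1 left out, and 5 with that array left out before normalization (44.6%). The cause was not tested.

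Small log2 fold changes that were not called changed sign. Between Δpde2 and wild type, with an array left out, CLN2 ran from -0.12 to 0.34, CLB5 from -0.106 to 0.0151 and WHI5 from -0.741 to 0.0350. CLB5 was 0.0441 as deposited. In the other fits without wild type replicate 1, CLB5 was 0.00756 (left out before normalization) and 0.00827 (only the arrays compared), and WHI5 was 0.0330 and 0.0350. Between Δpde2Δtpk3 and wild type, with an array left out, CLN3 ran from -0.39 to 0.14, SIC1 from -0.00734 to 0.201, WHI5 from -0.709 to 0.0667, CLN1 minus CLN2 from -0.650 to 0.000529 and CLB5 minus CLB6 from -0.36 to 0.62. CLN3 was 0.16 with array weights, and in those other fits CLN3 was 0.14 in both and WHI5 0.0634 and 0.0667. Between both mutants, with an array left out, CLB2 ran from -0.16 to 0.40, CLB6 from -0.22 to 0.20 and WHI5 from -0.0742 to 0.0121. CLB6 was 0.20 with median centring and 0.245 as deposited, and WHI5 was 0.0283 as deposited.

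With the replicate number as a block, 5 of the 10 genes were called between Δpde2 and wild type (34.6% of all genes), SIC1 being lost and CLB2 gained. The count was 0 between Δpde2Δtpk3 and wild type (0.0918%) and between both mutants (0.0184%), where CLB6 turned to 0.261 and WHI5 to 0.0499. Correlations of deviations between arrays of the same number were -0.09, -0.03 and 0.01 for Δpde2 with wild type. They were -0.03 and 0.12 for Δpde2Δtpk3 with wild type and 0.05 and 0.19 between both mutants. Deviations from a mean of 2 or 3 arrays depend on each other, so these values cannot show whether the numbers pair the arrays. Of 516 values of single genes under the alternatives, 444 kept their direction and side of the threshold. Most of these belong to results that were not called with all arrays and stayed so. Calls were lost in 18 values, 11 for SIC1 and 7 for CLN3 between Δpde2 and wild type. The threshold of a fold of at least 2, under which CLN3, CLB1 and SIC1 were lost, is not among the 516.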
